A study of Homo sapiens with 6 samples.

Results

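The 39 genes described here encode soluble enzymes, cofactors and membrane proteins of the lysosome, together with the transcription factors TFEB and TFE3. They were taken by symbol from a count table of 19610 genes measured by RNA sequencing in the human neuroblastoma line SH-SY5Y, and all 39 symbols were present. The list was proposed with the comparison of SGC707 with DMSO in view, because TPP1 and PLBD2 had been seen to be lower with SGC707. Values of the listed genes in that comparison are therefore given as a description, and nothing is supported with a test of them. They are log2 fold changes, also called log2 ratios, of SGC707 over DMSO. Of the 39 genes, 37 passed the filter on low counts and entered the fit over 12196 genes. CTSZ and TFEB did not.

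The treated group was 3 libraries, lettered A to C, of cells treated with SGC707, which inhibits PRMT3, an enzyme that methylates arginine residues of proteins. The other group was 3 libraries, also lettered A to C, from cells given the solvent DMSO. All 6 came from cells with the genotype WT. Neither the dose nor the exposure time was stated in the sources used, nor whether replicates were grown as separate cultures. Standard errors and p-values therefore rest on differences among libraries that could be technical.

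Lysosomes are acidic compartments that break down proteins, glycans, sulfated sugars and lipids delivered by endocytosis and autophagy. Most of their soluble enzymes are made in the endoplasmic reticulum, tagged with mannose 6-phosphate in the Golgi and carried to the lysosome by receptors. TFEB and TFE3 are transcription factors that bind short E-box elements with the core CACGTG in promoters of many lysosomal genes, and mTORC1 holds them in the cytoplasm when nutrients are plentiful. Inherited loss of many of these enzymes causes storage disease of neurons, and loss of TPP1, PPT1 or CLN3 causes neuronal ceroid lipofuscinosis.

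The promoter letters of 7 genes are shown because the CACGTG core separates the list into genes that hold it and genes that do not, with TPP1 and PLBD2 on different sides. The sequences come from RefSeq promoter windows on GRCh38.p14, run 5′ to 3′ on the strand of the gene and end at the last base before its transcription start. Capitals mark every CACGTG, which reads the same on both strands.
TPP1, chr11:6619423-6619502, minus strand: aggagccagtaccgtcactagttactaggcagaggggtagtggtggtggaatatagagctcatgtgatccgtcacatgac
PLBD2, chr12:113358507-113358586, plus strand: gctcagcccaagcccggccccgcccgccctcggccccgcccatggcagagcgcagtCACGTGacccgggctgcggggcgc
LAMP1, chr13:113297039-113297238, plus strand: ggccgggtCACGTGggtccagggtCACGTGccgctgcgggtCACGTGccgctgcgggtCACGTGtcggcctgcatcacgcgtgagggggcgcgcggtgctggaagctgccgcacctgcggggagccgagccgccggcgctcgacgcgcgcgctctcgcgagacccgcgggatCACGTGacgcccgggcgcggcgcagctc
CTSD, chr11:1763928-1764007, minus strand: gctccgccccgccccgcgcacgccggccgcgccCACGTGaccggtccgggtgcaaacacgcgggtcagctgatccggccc
CTSA, chr20:45891255-45891334, plus strand: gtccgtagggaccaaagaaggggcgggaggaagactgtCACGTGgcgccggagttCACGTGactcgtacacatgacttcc
GAA, chr17:80101501-80101580, plus strand: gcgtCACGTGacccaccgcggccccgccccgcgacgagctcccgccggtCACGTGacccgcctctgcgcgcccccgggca
MCOLN1, chr19:7522544-7522623, plus strand: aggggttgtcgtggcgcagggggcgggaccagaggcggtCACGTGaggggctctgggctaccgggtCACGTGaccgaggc

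RefSeq windows, from 250 bases before to 50 bases after a start, were at hand for 30 of the 39 genes. Of these 30 genes, 10 (33.3%) held CACGTG in at least 1 window, against 12.7% of the 9870 tested genes with a window and 8.77% of all 27305 genes with one. The longer TCACGTG, searched on both strands and always containing the shorter core, was in the same number of listed genes (33.3%) and in 7.19% of tested genes. LAMP1 held CACGTG 6 times in its window, of which the stretch above shows 5. CLN3, CTSA, CTSF, GAA and MCOLN1 held it 2 times each, and ARSB, CTSD, NEU1 and PLBD2 a single time. The TPP1 window held none, which says only that these letters are not in that window.

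Values in the comparison are given for both sets as a description, with no test. Among the 10 genes that held it, 3 had positive and 7 had negative log2 fold changes of SGC707 over DMSO, from -1.96 (PLBD2) to 0.43 (CTSF), with a median of -0.15. Among the 18 tested genes with a window and no CACGTG, 9 were positive and 9 negative, from -1.69 (TPP1) to 0.67 (LIPA), with a median of 0.00. Over all tested genes 52.8% were positive. Several signs changed without SGC707 C. Among the 10 genes, CTSA (0.16), GAA (0.17) and MCOLN1 (0.18) then turned positive, and no other gene changed sign. Among the 18, CTSL, GRN, GUSB, MAN2B1 and NPC2 turned positive and SCARB2 turned negative. The transcripts of the 10 genes also had more GC, with a median of 57.8% against 50.5%, and its part in these values was not tested. PLBD2 and TPP1, for which the list was chosen, are the lowest gene of each set.

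Several measures differed between the libraries across the whole table. Total counts were 11658728 to 12127187 with SGC707 and 11863696 to 15437602 with DMSO, but counts on genes outside the mitochondrial genome were 7559322 to 8999358 with SGC707 and 6066305 to 6327895 with DMSO. Mitochondrially encoded genes took 24.3% to 37.7% of counts with SGC707 and 46.7% to 60.7% with DMSO. SGC707 C stood apart in a trend with GC content, with a Spearman correlation across 12162 genes of -0.76 between transcript GC and its deviation from the gene means, against -0.12 to 0.52 in the other 5 libraries. PRMT3 itself stood at 19.3, 19.2 and 23.3 normalised CPM (counts scaled to the TMM-corrected library size) with SGC707, against 16.7, 14.8 and 17.3 with DMSO, and an inhibitor need not change it.

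Neuroblastoma markers were abundant, mesenchymal markers were also present, and macrophage and epithelial markers were low. The summed level of 10 adrenergic neuroblastoma markers was 4033 to 4432 normalised CPM with SGC707 and 4726 to 5663 with DMSO, with 45.8% of it from STMN2, and TH had no count in any library. Of 10 macrophage and microglia markers, PTPRC, AIF1, CSF1R, TYROBP, ITGAM and C1QA had no count in any library, and the sum was 0.755 to 2.57 normalised CPM with SGC707 and 1.66 to 2.07 with DMSO. Most of that came from CD68 (59.1%). The defining markers of macrophages, which are rich in lysosomes, were thus at or near 0 in both groups. Epithelial markers summed to 2.10 to 4.03 normalised CPM with SGC707 and 1.76 to 3.43 with DMSO. Mesenchymal markers summed to 263.1 to 281.8 with SGC707 and 257.3 to 322.9 with DMSO, with VIM at 143 to 162 with SGC707 and 129 to 175 with DMSO. In bulk RNA, fewer cells of a type and less RNA per cell cannot be told apart.

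Levels were compared between genes as TPM, computed from counts per kilobase of the longest coding transcript over nuclear genes. The median level of the 37 tested genes was 43.7 TPM over the 6 libraries, against 35.1 TPM for all 12162 tested nuclear genes. IDS, PSAP, SCARB2, PLBD2, TPP1 and LAMP1 had the highest mean levels, from 351 TPM (IDS) to 186 TPM (LAMP1), and these 6 genes lay in the upper 10% of tested nuclear genes, which began at 161 TPM. CTSC (5.25 TPM) and CLN3 (9.13 TPM) were the lowest of the tested genes.

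The order of the leading genes differed between the groups. With SGC707 it ran PSAP (371 ± 71.4 TPM), IDS (289.8 ± 37.5), SCARB2 (282 ± 61.4), LAMP1 (169.9 ± 10.2), CTSB (119 ± 11.9) and ASAH1 (116 ± 12.9), followed by PLBD2 (102 ± 24.2), CTSD (99.4 ± 44.2) and TPP1 (98.0 ± 13.0; SD, n = 3). With DMSO it ran IDS (413 ± 56.9 TPM), PLBD2 (388 ± 129), TPP1 (309 ± 86.7), PSAP (307 ± 23.6), SCARB2 (255 ± 17.5) and LAMP1 (202 ± 11.4; SD, n = 3). Neighbours in either order mostly lay within each other's spread, among them IDS and SCARB2 with SGC707, and IDS, PLBD2, TPP1 and PSAP with DMSO. PLBD2 ranked 7 of 39 with SGC707 and 2 with DMSO, and TPP1 ranked 9 with SGC707 and 3 with DMSO.

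**Figure D1:**
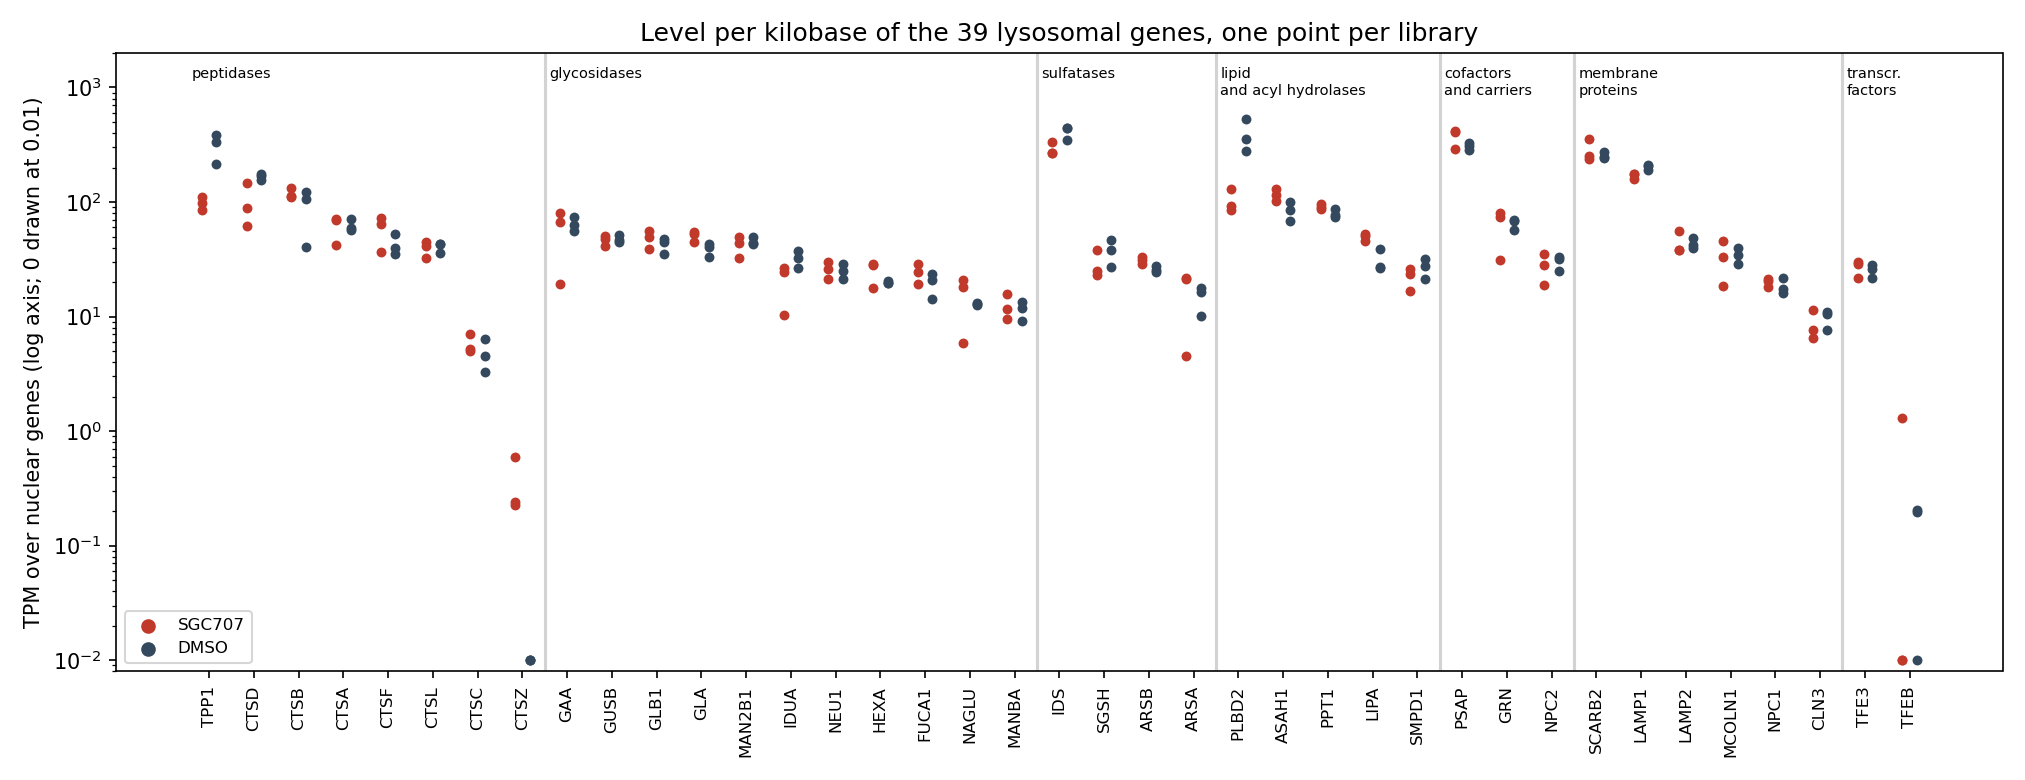
Levels of the 39 lysosomal genes in TPM over nuclear genes (log axis, with 0 drawn at its lower end), grouped by role, with SGC707 libraries in red left of DMSO libraries in dark blue and 1 point per library. IDS, PSAP, SCARB2, PLBD2, TPP1 and LAMP1 lead with means of 186 to 351 TPM, and CTSZ and TFEB lie below 1 TPM on average.

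The peptidases include the gene that prompted the list. TPP1 (GRCh38 chromosome 11, 6612763 to 6619485) encodes tripeptidyl peptidase 1, which removes tripeptides from the N-terminus of proteins. It stood at 54.6, 61.1 and 70.3 normalised CPM in SGC707 A to C, against 214, 250.3 and 135 in DMSO A to C. All SGC707 libraries were below all DMSO libraries, and the DMSO libraries spread more widely. The counts behind these values were 902 to 971 with SGC707 and 1497 to 2560 with DMSO. Another annotated gene, AC091564.7, covers 11.6% of the exon bases of TPP1 on the same strand. It is not among the counted genes, so the counts of TPP1 are uncertain to that extent. The fitted level with SGC707 was 0.310 of that with DMSO, a log2 fold change of -1.69 (SE 0.24), and leaving out 1 library moved it from -1.91 (without DMSO C) to -1.49 (without DMSO B).

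CTSD, the main aspartic protease of the lysosome, had the next most negative value among peptidases. Its levels were 56.1, 33.0 and 23.1 normalised CPM in SGC707 A to C, against 66.1, 65.9 and 58.8 in DMSO A to C, a log2 fold change of -0.76 (SE 0.30). The groups did not overlap, but SGC707 A lay close to DMSO C. The value was -0.52 without SGC707 C and -1.18 without SGC707 A, and CTSD transcripts have a GC content of 64.0%. Another annotated gene, AC068580.4, covers 41.7% of the exon bases of CTSD on the same strand, with a level of 0.863 TPM, so the counts of CTSD are uncertain to that extent.

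The other peptidases lay closer to 0 or were higher. CTSF, the highest peptidase by fold, stood at 26.5, 23.0 and 13.2 normalised CPM in SGC707 A to C, against 14.5, 13.1 and 19.0 in DMSO A to C (log2 ratio 0.43, SE 0.29). Its groups overlapped, with SGC707 C low and DMSO C high. CTSB stood at 92.2, 75.7 and 77.9 with SGC707 and at 84.7, 28.9 and 72.7 with DMSO, where DMSO B was the low library. CTSB was the only tested gene of the list with a more than 2-fold range among the DMSO libraries, and it is named because of its values. Its log2 fold change was 0.40 (SE 0.35), and 0.06 without DMSO B. CTSC, a dipeptidyl peptidase that activates serine proteases, had a value of 0.26, CTSL one of -0.06 and CTSA, a carboxypeptidase that also stabilises GLB1 and NEU1, one of -0.05. CTSL has several annotated pseudogenes, so reads may be split among copies, and NEURL2 covers 17.7% of the exon bases of CTSA on the opposite strand.

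CTSZ, a carboxypeptidase of the cathepsin family, was at the limit of detection. It had 1, 1 and 2 counts in SGC707 A, B and C and 0 counts in every DMSO library. A count of 0 allows up to 3 counts by counting error alone. On raw library totals, without the TMM factors, that is 0.194 to 0.253 CPM in the DMSO libraries. A difference in CTSZ could therefore not be detected with these counts.

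The glycosidases cut sugars from glycoproteins, glycolipids, glycogen and glycosaminoglycans. Of 11 genes, 7 had positive and 4 negative log2 fold changes, and their median was 0.08, against 0.02 over all tested genes. GLA, alpha-galactosidase A, had the highest value. It stood at 13.4, 13.6 and 11.1 normalised CPM in SGC707 A to C, against 8.49, 10.6 and 10.8 in DMSO A to C, a log2 fold change of 0.36 (SE 0.20). The groups did not overlap, although SGC707 C and DMSO C were close.

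IDUA, which removes iduronic acid from dermatan and heparan sulfate, had the lowest value among glycosidases. It stood at 10.3, 9.24 and 3.97 normalised CPM in SGC707 A to C, against 12.5, 15.0 and 10.2 in DMSO A to C (log2 ratio -0.67, SE 0.36). SGC707 A and DMSO C overlapped, and the value was -0.36 without SGC707 C. GAA, the enzyme that degrades glycogen and the glycosidase with the highest level, stood at 51.9, 43.0 and 12.3 normalised CPM with SGC707 and at 40.8, 49.6 and 35.8 with DMSO. Its log2 fold change of -0.23 (SE 0.45) became 0.17 without SGC707 C, the library that was low. The other 8 genes were GUSB, MAN2B1, NEU1, MANBA, GLB1, NAGLU, HEXA and FUCA1, with values from -0.14 (MAN2B1) to 0.29 (HEXA and FUCA1). GUSB has annotated pseudogenes, and AC010422.3, at 33.4 TPM, covers 13.1% of the exon bases of MAN2B1 on the same strand, so both counts are uncertain.

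The sulfatases remove sulfate from glycosaminoglycans and sulfatides, and IDS led them in level. IDS (chromosome X, 149476990 to 149521096) encodes iduronate 2-sulfatase and had the highest TPM of the listed genes with DMSO and the next highest, after PSAP, with SGC707. It stood at 362, 362 and 448 normalised CPM in SGC707 A to C, against 608, 623 and 469 in DMSO A to C, a log2 fold change of -0.54 (SE 0.17). The groups did not overlap, although SGC707 C and DMSO C were close. Reads may be shared with the pseudogene IDSP1, and AC244197.3, at 6.98 TPM, covers 16.5% of the exon bases of IDS on the same strand.

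ARSB, which acts on dermatan sulfate, ran the other way. It stood at 29.7, 31.1 and 26.9 normalised CPM in SGC707 A to C, against 24.0, 23.9 and 25.9 in DMSO A to C (log2 ratio 0.25, SE 0.16). The groups did not overlap, and the libraries of each group lay close together. ARSA, which acts on sulfatide, had a value of 0.10 (SE 0.54), with 1.64 normalised CPM in SGC707 C against 8.04 and 7.61 in SGC707 A and B. SGSH, the sulfamidase of heparan sulfate, had -0.40 (SE 0.29), and -0.67 without SGC707 A.

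The lipid and acyl hydrolases held both the lowest and the highest value of the list. PLBD2 (chromosome 12, 113358566 to 113391625) encodes a lysosomal protein related to phospholipase B. It stood at 73.1, 77.2 and 110.1 normalised CPM in SGC707 A to C, against 303, 469 and 238 in DMSO A to C. The lowest DMSO library was above the highest SGC707 library, and DMSO B was well above the other DMSO libraries. The fitted level with SGC707 was 0.258 of that with DMSO, a log2 fold change of -1.96 (SE 0.28), and leaving out 1 library moved it from -2.17 (without SGC707 C) to -1.64 (without DMSO B).

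LIPA, the acid lipase that frees cholesterol and fatty acids from lipoprotein lipids, had the highest value. It stood at 26.0, 22.5 and 24.9 normalised CPM in SGC707 A to C, against 13.4, 13.7 and 19.1 in DMSO A to C, a log2 fold change of 0.67 (SE 0.20). SGC707 libraries were all above DMSO libraries, and leaving out 1 library gave 0.57 to 0.85. ASAH1, acid ceramidase, stood at 55.9, 61.7 and 69.1 with SGC707 and at 45.9, 37.8 and 53.8 with DMSO (log2 ratio 0.44, SE 0.18). Its groups did not overlap.

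PPT1, which removes palmitate from proteins, stood at 61.9, 63.3 and 68.7 normalised CPM with SGC707 and at 53.2, 56.7 and 61.2 with DMSO (log2 ratio 0.18, SE 0.14). The groups touched without overlap. CAP1, at 239.5 TPM, shares 23.4% of the exon bases of PPT1 on the opposite strand, and whether reads were counted by strand is not stated, so the PPT1 counts are uncertain. SMPD1, acid sphingomyelinase, had a value of -0.31 (SE 0.26), and -0.14 without SGC707 C.

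**Figure D2:**
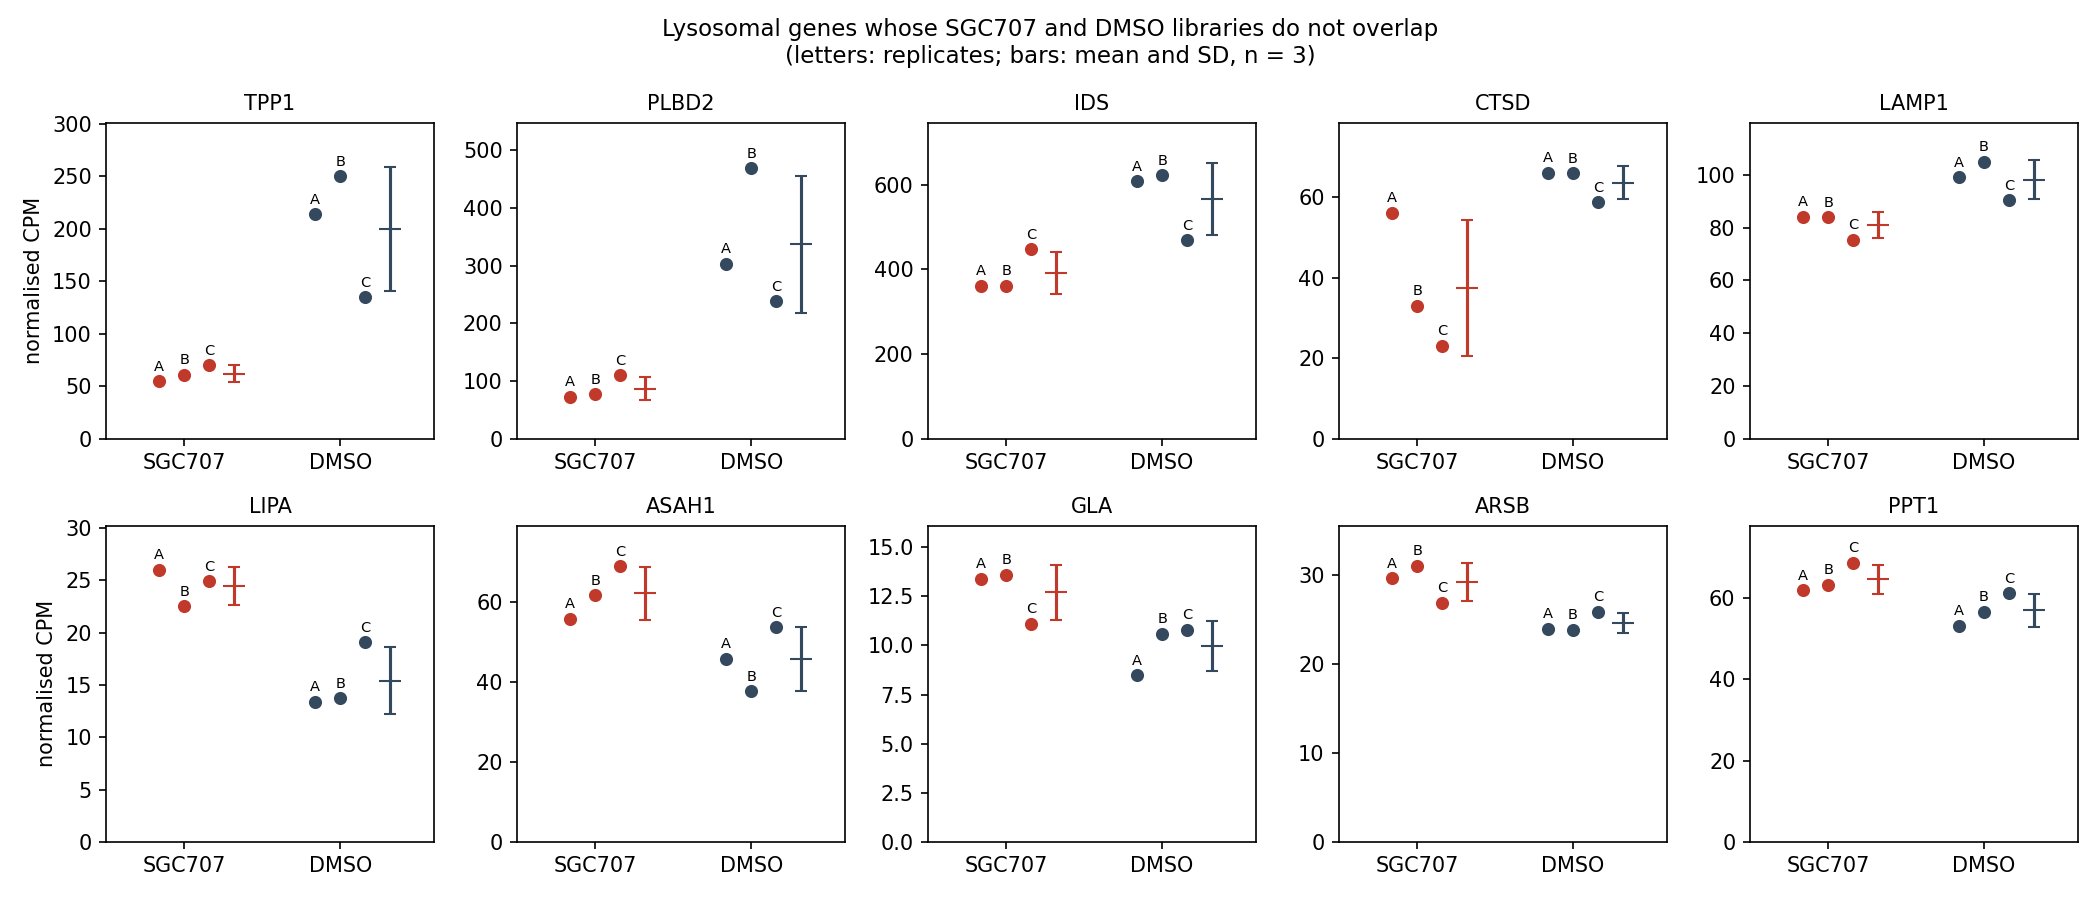
Normalised CPM in each SGC707 (left, red) and DMSO (right, dark blue) library for the 10 lysosomal genes whose groups do not overlap, with letters for replicates and bars for the mean and SD (n = 3). TPP1 and PLBD2 show the widest gaps relative to their level, and in PPT1, GLA, ARSB and ASAH1 the groups nearly touch.

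The luminal cofactors and the cholesterol carrier differed little. PSAP, the precursor of the saposins that help enzymes reach lipids, stood at 211, 208 and 146 normalised CPM in SGC707 A to C, against 159, 149 and 167 in DMSO A to C (log2 ratio 0.25, SE 0.17). SGC707 C was below all DMSO libraries while SGC707 A and B were above them, and the value was 0.40 without SGC707 C and 0.16 without SGC707 A. NPC2, which hands cholesterol to NPC1, stood at 9.00, 7.11 and 4.75 with SGC707 and at 8.49, 8.41 and 6.39 with DMSO (log2 ratio -0.15, SE 0.29). GRN, the precursor of granulins, had a value of -0.09 (SE 0.33), and 0.22 without SGC707 C.

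The 6 membrane proteins had values from -0.27 to 0.12. LAMP1, an abundant glycoprotein of the lysosomal membrane, stood at 84.1, 83.9 and 75.4 normalised CPM in SGC707 A to C, against 99.1, 105 and 90.5 in DMSO A to C, a log2 fold change of -0.27 (SE 0.14). Its groups did not overlap. SCARB2, a membrane receptor that sorts a lysosomal enzyme, stood at 205, 213 and 298 with SGC707 and at 213, 212 and 233 with DMSO, with SGC707 C the high library (log2 ratio 0.12, SE 0.17, and -0.07 without SGC707 C).

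LAMP2, a further glycoprotein of that membrane with a role in autophagy, had a value of -0.01 (SE 0.20). NPC1, which exports cholesterol, had 0.10 (SE 0.19), MCOLN1, a calcium channel, -0.10 (SE 0.33) and CLN3, a membrane protein lost in juvenile neuronal ceroid lipofuscinosis, -0.20 (SE 0.29). LAMP2 was 39.5 normalised CPM in SGC707 C and 27.3 and 27.2 in SGC707 A and B. MCOLN1 ran the opposite way, at 6.78 in SGC707 C and 17.0 and 12.0 in SGC707 A and B. AC138894.1, at 0.703 TPM, covers 25.2% of the exon bases of CLN3 on the same strand, so the counts of CLN3 are uncertain.

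Of the transcription factors, only TFE3 was measured well. TFE3 stood at 17.6, 18.1 and 12.9 normalised CPM in SGC707 A to C, against 17.2, 13.6 and 15.8 in DMSO A to C, a log2 fold change of 0.07 (SE 0.21), with overlapping groups. TFEB had 10, 0 and 0 counts in SGC707 A to C, against 1, 0 and 1 in DMSO A to C. All but SGC707 A were within the 3 counts that a count of 0 allows. Their activity depends on where the proteins sit in the cell, which RNA counts do not measure.

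**Figure D3:**
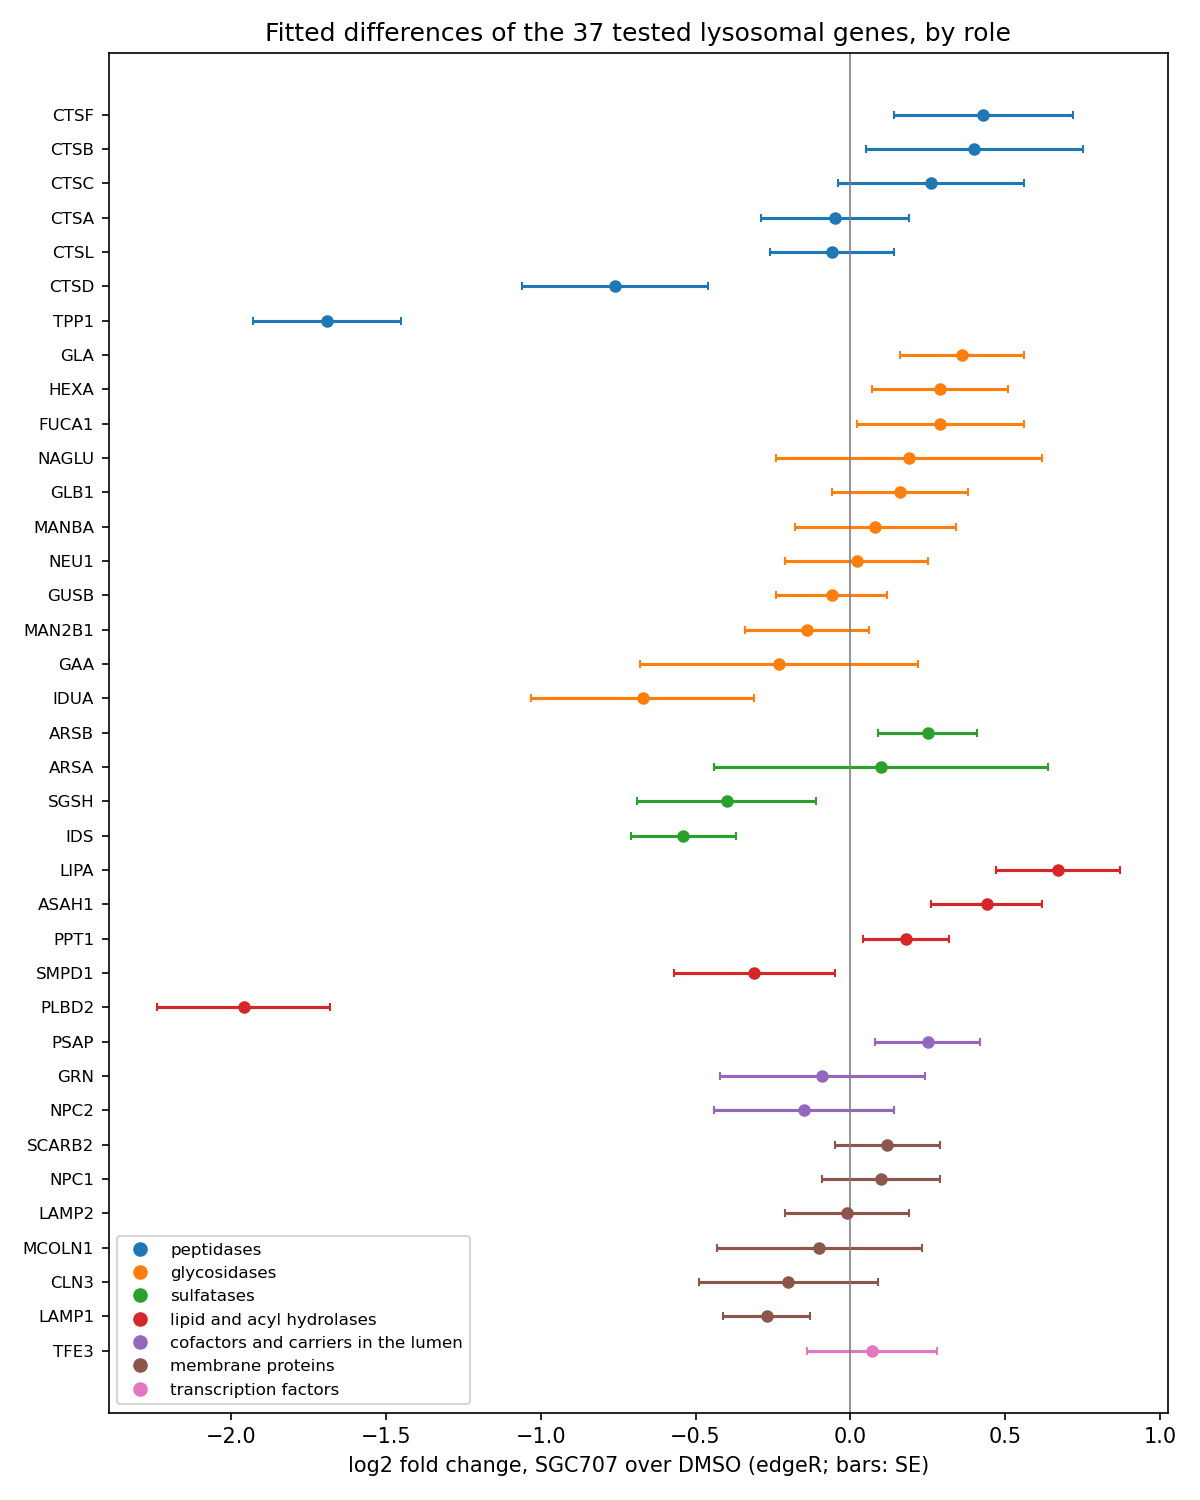
Fitted log2 fold change of SGC707 over DMSO with its standard error for the 37 tested lysosomal genes, ordered by role from top to bottom. PLBD2 (-1.96) and TPP1 (-1.69) lie apart from the other 35 genes, which range from -0.76 (CTSD) to 0.67 (LIPA).

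Over the list as a whole, positive and negative values were balanced. Of 37 tested genes, 19 had positive and 18 negative log2 fold changes, and the median was 0.02, the same as over all 12196 tested genes, of which 52.8% were positive. PLBD2 and TPP1, for which the list was chosen, were the genes with a more than 2-fold difference (5.41% of the 37, where 2.78% of all tested genes had one), and 31 of the 37 lay within 0.5 log2 units of 0, as did 81.0% of all tested genes. SGC707 libraries lay all above DMSO libraries in 5 listed genes (LIPA, ASAH1, GLA, ARSB and PPT1), as in 10.8% of all tested genes. They lay all below in 5 others (PLBD2, TPP1, CTSD, IDS and LAMP1), as in 9.78% of all tested genes, and the share in either direction was 20.6%.

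None of the 37 genes passed an edgeR adjusted p of 0.05, a level that 0.0246% of all tested genes passed (0.00820% higher and 0.0164% lower). At an unadjusted p under 0.05 there were 2 higher (LIPA and ASAH1) and 4 lower genes (PLBD2, TPP1, IDS and CTSD), beside 5.62% higher and 7.13% lower over the whole table (12.8% in all). Because the list was proposed with this comparison in view, nothing is read from these counts.

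Calls of listed genes in other fits are given as a description only, since the list was chosen on TPP1 and PLBD2 in these same libraries. DESeq2 called TPP1 and PLBD2 lower and no listed gene higher, and over all genes it tested it called 2.87% (0.469% higher and 2.41% lower). limma-voom called 0 listed genes, where it called 0.0164% of all tested genes (0% higher and 0.0164% lower). edgeR after a correction for GC content and length called TPP1 lower, where 0.508% of all tested genes were called (0.0738% higher and 0.435% lower). Without SGC707 C, edgeR called PSAP higher and TPP1, PLBD2 and IDS lower, where 9.26% were called (3.73% higher and 5.53% lower).

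Scaling by library totals alone, which leaves the large mitochondrial counts in the denominator, put the median log2 fold change of all tested genes at 0.69, with that of the listed genes also at 0.69. On that scale 34 of the 37 listed genes were positive and 3 negative, so that the direction of most negative values turned, LAMP1 and IDS among them. GLA, ARSB, ASAH1, PPT1, LIPA, PSAP and SCARB2 were called higher and TPP1 and PLBD2 lower, where 21.4% of all tested genes were called (21.1% higher and 0.254% lower). The TPP1 and PLBD2 values were -0.99 and -1.26, both negative while most genes were positive.

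The summed share of the list depended on the denominator. The 39 genes took 0.311% ± 0.0158 of nuclear counts with SGC707 and 0.385% ± 0.0291 with DMSO (SD, n = 3). TPP1 and PLBD2 took 0.0264% ± 0.00372 with SGC707 and 0.0917% ± 0.0281 with DMSO, and the other 37 genes took 0.284% ± 0.0195 with SGC707 and 0.293% ± 0.00882 with DMSO. With all counts, mitochondrial ones included, as the denominator the order turned, with 0.183% to 0.246% for the 39 genes with SGC707 and 0.161% to 0.188% with DMSO. The separate values of TPP1 and PLBD2 follow from the choice of the list. Each library's 95% Wilson interval was narrower than these SDs for the whole list and covers counting error only.

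TPP1 and PLBD2 also ordered the 6 libraries alike. From high to low both ran DMSO B, DMSO A, DMSO C, SGC707 C, SGC707 B and SGC707 A, which is the order of the mitochondrial share of counts. The same order was found in 150 of the 12196 tested genes (1.23%), and no other listed gene had it. A gene in this order has all SGC707 libraries below all DMSO libraries, and among the 1193 genes with that property the share was 12.6%. The part of the mitochondrial share in these values was not tested. In a fit without the mitochondrial genes the log2 fold changes were -1.69 for TPP1 and -1.96 for PLBD2, as in the main fit. TMM scaling already allows for those genes, so leaving them out is no test of that part.

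Within the SGC707 group the listed genes varied with GC content, as all tested genes did. SGC707 C was the lowest of the 3 SGC707 libraries in 26 of 37 tested genes, a share not counted over all genes. All 11 listed genes with a transcript GC content of at least 60% were lower in SGC707 C than the mean of SGC707 A and B, by a median log2 difference of -1.02. Of the 8 listed genes under 45% GC, 7 were higher in SGC707 C, with a median over the 8 of 0.37. The same differences over all tested nuclear genes were -1.02 (1903 genes) and 0.41 (4556 genes). Of the 1903 genes 1861 were lower in SGC707 C, and of the 4556 genes 3989 were higher.

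Across the 37 listed genes, which share the same libraries, the Spearman correlation of GC content with this difference was -0.79, and it was -0.77 across 12162 genes. ARSA (66.0% GC), GAA (64.1%) and NAGLU (64.4%) had the lowest differences, at -1.96, -1.90 and -1.55. PLBD2, at 55.6% GC, was higher in SGC707 C by 0.55, and TPP1, at 50.7%, by 0.28. The GC-corrected log2 fold changes were -1.69 for TPP1 and -1.83 for PLBD2. Without SGC707 C, 25 listed genes had positive and 12 negative values with a median of 0.13, where 52.1% of all tested genes were positive with a median of 0.02. After the GC and length correction on all libraries, 18 listed genes were positive and 19 negative with a median of -0.01. Median GC content was 54.7% in the listed genes and 48.4% over all tested nuclear genes. The part of GC content in the values without SGC707 C was not tested.

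**Figure D4:**
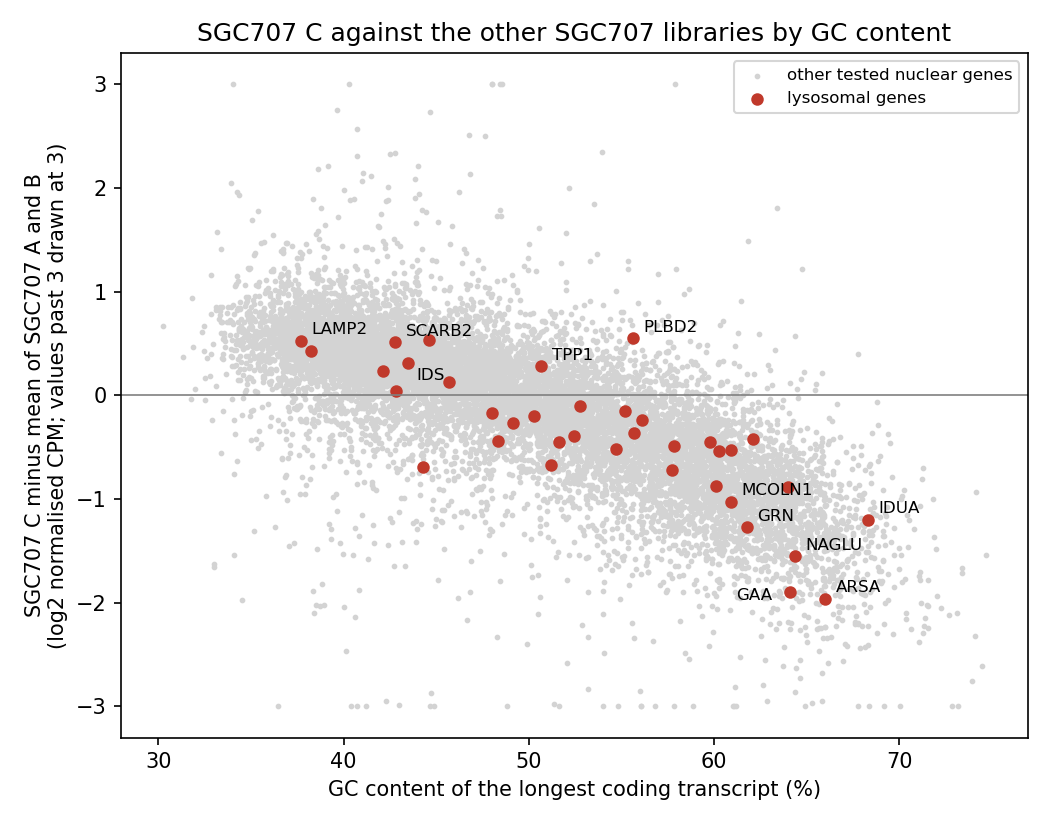
Difference in log2 normalised CPM between SGC707 C and the mean of SGC707 A and B against transcript GC content, for the 37 tested lysosomal genes (red) and the other tested nuclear genes (grey). Differences in both sets are lower at higher GC content, with ARSA, GAA and NAGLU lowest in the list and PLBD2 above the other listed genes of similar GC content.

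Other genes of the lysosome, from lists written from knowledge of the organelle, were read from the same fit. None of the 111 tested genes in 5 lists passed an edgeR adjusted p of 0.05, in either direction. At an unadjusted p under 0.05 there were 10 higher and 6 lower among the 111, beside 5.62% and 7.13% of all tested genes. limma-voom called 0 (0.0164% over all genes), and DESeq2 called 1 (2.87% over all genes), which was ATP6AP2 (DESeq2 adjusted p = 0.00646).

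The proton pump that acidifies the lysosome had members at both ends. Of 18 V-ATPase genes, 10 had positive and 8 negative values, and their median was 0.05. ATP6AP2, an accessory subunit, stood at 53.4, 53.5 and 58.9 normalised CPM with SGC707 and at 32.5, 27.1 and 35.2 with DMSO (log2 ratio 0.81, SE 0.16, edgeR adjusted p = 0.178). The catalytic subunit gene ATP6V1A stood at 46.8, 49.6 and 50.1 with SGC707 and at 31.3, 28.8 and 36.6 with DMSO (log2 ratio 0.60, SE 0.16, edgeR adjusted p = 0.243). The membrane ring subunit gene ATP6V0C had the lowest value, -0.80 (SE 0.40, edgeR adjusted p = 0.457), with overlapping groups. It stood at 75.7, 51.3 and 22.1 with SGC707, where SGC707 C was the low library, and at 70.2, 108 and 81.5 with DMSO.

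Genes of enzyme maturation and sorting included 13 positive and 7 negative values among 20, with a median of 0.14. SUMF1, which activates all sulfatases, stood at 8.70, 7.74 and 6.31 normalised CPM with SGC707 and at 5.25, 3.52 and 4.14 with DMSO (log2 ratio 0.82, SE 0.26, edgeR adjusted p = 0.290). The adaptor subunit gene AP1S1 had the same value (SE 0.24, edgeR adjusted p = 0.266), and it stood at 76.0, 64.3 and 44.7 with SGC707 and at 30.2, 31.2 and 43.1 with DMSO. SGC707 libraries lay all above DMSO libraries in 6 of the 20 genes and all below in 0, beside 10.8% and 9.78% of all tested genes. Other luminal hydrolases had 3 above and 3 below of 29, and other membrane proteins and transporters 2 and 4 of 25. V-ATPase genes had 4 and 2 of 18, and genes of TFEB and mTORC1 control 2 and 1 of 19. No list was tested as a set.

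Other luminal hydrolases (29 tested, 16 positive, median 0.00) and other membrane proteins and transporters (25 tested, 10 positive, median -0.06) were close to balance. PRCP, a carboxypeptidase, had a value of 0.54 (SE 0.21, edgeR adjusted p = 0.357). The membrane genes OSTM1 (-0.63, SE 0.19, edgeR adjusted p = 0.273), a partner of the chloride transporter CLCN7, and CLCN6 (-0.51, SE 0.14, edgeR adjusted p = 0.263), a chloride transporter of late endosomes, had negative values. At the other end MFSD1 had the highest value of the membrane list (0.69, SE 0.21, edgeR adjusted p = 0.278).

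Among 19 tested genes that control TFEB and mTORC1 at the lysosome, 10 were positive and 9 negative, with a median of 0.06. LAMTOR5, a subunit of the Ragulator scaffold, stood at 25.1, 23.3 and 14.9 normalised CPM with SGC707 and at 9.54, 12.8 and 13.1 with DMSO (log2 ratio 0.84, SE 0.25, edgeR adjusted p = 0.277). RPTOR, the mTORC1 subunit that binds its substrates, stood at 44.8, 37.7 and 29.4 with SGC707 and at 56.0, 51.7 and 45.6 with DMSO (log2 ratio -0.45, SE 0.19, edgeR adjusted p = 0.388).

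**Figure D5:**
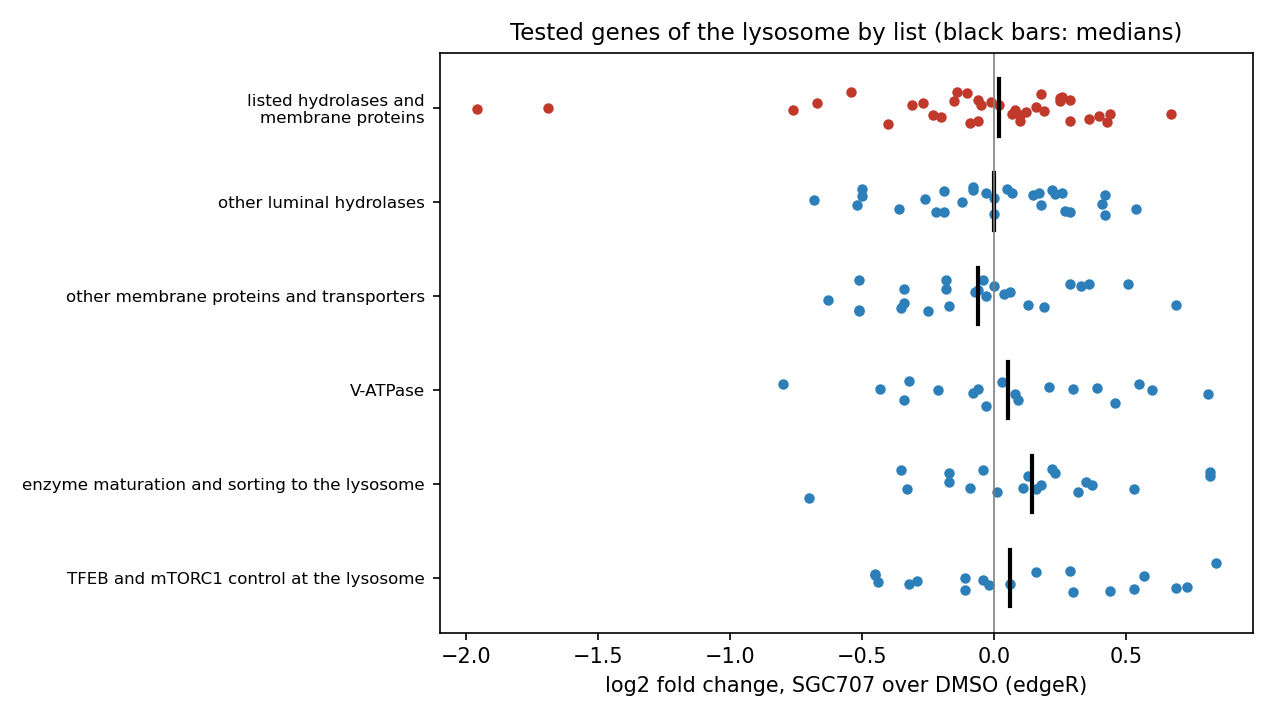
Log2 fold change of SGC707 over DMSO for the 37 tested genes of the list (red) and the tested genes of 5 further lysosomal lists (blue), with black bars at the medians. The medians lie between -0.06 and 0.14, and PLBD2 and TPP1 are the 2 red points at the far left.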

How the data were processed

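Read counts per gene symbol were deposited by the authors as whole numbers, unscaled, with 1 column per library. HISAT2 and StringTie on GRCh38 are named per the submitters' processing notes, without versions. No source used names the annotation, the strand setting or the treatment of shared reads. Libraries were grouped by the titles in the labels.

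The 39 members and all gene lists were chosen with earlier results of these data known. Counts were fitted in R 4.3.3 with edgeR 4.0.16 (filterByExpr, TMM, robust glmQLFit, glmQLFTest, group as the only term). P-values were adjusted by the Benjamini-Hochberg method over 12196 genes, with a threshold of 0.05. Each standard error is the log2 fold change (or log2 ratio) over the root of its F statistic. Normalised CPM uses the TMM factors. Differences within a group used log2 of normalised CPM plus 0.5. Lengths, GC content, coordinates and exon overlaps came from GENCODE 29 on GRCh38. Symbols matched directly for 19271 rows, through a synonym for 277 and not for 62. The fit was run on simulated counts that had no GC trend and no outlying library, so that run says nothing about either.

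Alternatives were RLE factors, library totals only, no mitochondrial genes, no expression filter, a higher minimum (mean count 50 and 1 CPM in 3 libraries), DESeq2 1.42.0, limma-voom (limma 3.58.1), each library left out, a replicate block, a lowess correction for GC content and length (span 0.3) and a threshold of 0.01.

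Genes shown with every library's value are TPP1, PLBD2, the transcription factors, the highest and lowest by fold and the highest by level in each role, and those whose groups do not overlap. CTSB, CTSZ and ARSA, and genes singled out for GC content, were named after their values were seen, as were ATP6V0C and MFSD1. From each further list the 2 genes with the smallest p and a mean of at least 5 CPM are named, and 1 of them is not reported here. Libraries of 1 group differed from each other by more than sampling noise (chi-square over degrees of freedom at least 12.4). Figures were drawn with matplotlib 3.10.9.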

Additional observations from a re-analysis of the deposited data

How the results depend on the processing

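The count of all genes called was 3, and it became 2605 with library totals only, 6 with no filter, 288 with DESeq2, 62 after the GC and length correction, 0 with the replicate block, 0 at an adjusted p under 0.01, and 0 (without SGC707 B, or without either DMSO A or DMSO B) to 1147 (without SGC707 C) with 1 library left out. The count of listed genes called was 0, and it became 9 with library totals only, 2 with DESeq2, 1 after the correction and 0 to 4 with 1 library left out, the 4 without SGC707 C. In the 5 further lists, with 111 tested genes, 0 were called, and 24 with library totals only and 1 with DESeq2. Leaving out 1 library gave 0 to 10 there, the 10 without SGC707 C. Of all tested genes, 21.4% were called with library totals only, 2.87% with DESeq2, 0.508% after the correction and 9.26% without SGC707 C. The median log2 fold change of the tested members was 0.02, and it was 0.69 with library totals only, which put the median of all genes at 0.69 too. That scaling gave TPP1 -0.99 and PLBD2 -1.26. With 1 library left out the median ran from -0.13 to 0.13. The share of nuclear counts on the list differed by -0.0743 percentage points between SGC707 and DMSO, and by 0.0436 when all counts were the denominator. Of 555 member values under alternatives, 520 moved by less than the spread within groups. The 35 others were all under library totals only. That spread includes SGC707 C, so this measure could hardly show a move when that library was left out. Without SGC707 C, 25 listed genes were positive and 12 negative, against 19 and 18 in the main fit.

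The replicate block gave a median of -0.02 and called 0 listed genes. The letters are not stated to pair libraries, and same-letter libraries had correlations of their deviations of 0.0795 (A), -0.0228 (B) and 0.0998 (C). Not every library correlated best with its own letter. CTSZ and TFEB had too few counts to be tested.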
